A study of Homo sapiens with 6 samples.

Results

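The RNAs described here are the small nucleolar RNAs (snoRNAs) and small Cajal body RNAs measured in RNA collected with SYNJ2BP, a protein of the outer mitochondrial membrane. A row of the gene count table was taken where its gene symbol begins with SNORD, SNORA or SCARNA and a number, and where its counts over the 6 libraries sum to 100 or more. This gave 179 of 60671 rows: 70 SNORD, 90 SNORA and 19 SCARNA rows, out of 314, 214 and 25 with such symbols. The members were thus chosen by the summed counts of all libraries. A high count in a library is in part a condition of being a member, and these levels are given as a description.

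HEK cells, a human line derived from embryonic kidney, were transfected with calcium phosphate. RNA was then recovered with an antibody against the myc tag, depleted of ribosomal RNA and sequenced. The samples form 2 groups of 3 replicates, WT.Control and AAA.mito, called control and mutant below. The control is labelled untreated, and the sources used here do not say what its cells express. The mutant is labelled SYNJ2BP AAA mutant, and the labels give neither the residues behind AAA nor the meaning of the term mito, which only the mutant's name carries, so a further difference between the groups is possible. All 6 samples are labelled as SYNJ2BP binding RNA. The labels do not say that replicates came from separate cultures, so a p-value sets a difference against the spread between libraries only, part of which may be technical. Precipitated RNA gives the abundance among recovered molecules: more of an RNA in the cells and more of it carried along in the precipitate cannot be told apart. The series asks which RNAs are recovered differently with the mutant protein.

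Box C/D snoRNAs (SNORD symbols) are named for a pair of short conserved motifs near their ends, and most guide the enzyme FBL to ribose positions that it methylates in ribosomal RNA. Box H/ACA snoRNAs (SNORA symbols) fold into hairpins with an ACA motif close to the 3′ end and guide the pseudouridine synthase DKC1. Most human snoRNAs lie in introns of host genes and are trimmed from the spliced intron, and they work in the nucleolus. A few, such as U3, U8 and U17, act in cleavage of the ribosomal RNA precursor and not mainly as modification guides. The SCARNA RNAs carry box C/D elements, H/ACA elements or both, and guide the modification of spliceosomal RNAs in Cajal bodies.

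The sequences of the RNAs on which the results turn are printed from the GENCODE release 29 transcripts, 5′ to 3′, on GRCh38, matched by gene ID. In SNORD sequences the capitals mark the box C letters TGATGA where they stand in the first 30 bases and the box D letters CTGA where they stand in the last 16. In the others the capitals mark ACA where it stands exactly 3 bases before the end. SNORD3A and SNORD3D are shown because their counts differ although their letters nearly agree. SNORD17 is an abundant methylation guide, and SNORD33 and SNORD89 had low mutant counts in the deepest pair. SNORA73A and SNORA73B hold most H/ACA counts of that pair, and SCARNA13 and SCARNA16 stand for the Cajal body RNAs.
SNORD3A: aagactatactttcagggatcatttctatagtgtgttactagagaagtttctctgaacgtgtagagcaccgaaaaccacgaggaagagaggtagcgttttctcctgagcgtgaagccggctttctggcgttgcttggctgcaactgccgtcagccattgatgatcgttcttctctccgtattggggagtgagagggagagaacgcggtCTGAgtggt
SNORD3D: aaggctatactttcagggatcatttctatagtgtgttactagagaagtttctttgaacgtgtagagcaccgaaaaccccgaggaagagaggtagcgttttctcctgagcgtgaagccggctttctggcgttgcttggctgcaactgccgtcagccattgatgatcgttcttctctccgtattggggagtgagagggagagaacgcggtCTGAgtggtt
SNORD17: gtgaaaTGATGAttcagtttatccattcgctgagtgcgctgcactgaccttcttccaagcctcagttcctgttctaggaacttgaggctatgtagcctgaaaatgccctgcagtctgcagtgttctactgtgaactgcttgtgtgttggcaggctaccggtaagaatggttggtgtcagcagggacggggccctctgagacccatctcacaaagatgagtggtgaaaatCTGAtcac
SNORD33: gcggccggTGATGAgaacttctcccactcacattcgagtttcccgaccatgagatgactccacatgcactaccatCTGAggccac
SNORD89: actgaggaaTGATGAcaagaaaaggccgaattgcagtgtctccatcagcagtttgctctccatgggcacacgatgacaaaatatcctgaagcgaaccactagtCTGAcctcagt
SNORA73A: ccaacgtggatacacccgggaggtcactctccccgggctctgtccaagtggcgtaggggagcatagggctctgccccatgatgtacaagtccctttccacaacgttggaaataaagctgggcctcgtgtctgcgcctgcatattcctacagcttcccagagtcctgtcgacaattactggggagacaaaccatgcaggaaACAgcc
SNORA73B: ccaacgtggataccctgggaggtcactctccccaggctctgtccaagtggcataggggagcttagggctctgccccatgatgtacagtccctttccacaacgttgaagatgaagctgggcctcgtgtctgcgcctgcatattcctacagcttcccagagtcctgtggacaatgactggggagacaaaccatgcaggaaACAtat
SCARNA13: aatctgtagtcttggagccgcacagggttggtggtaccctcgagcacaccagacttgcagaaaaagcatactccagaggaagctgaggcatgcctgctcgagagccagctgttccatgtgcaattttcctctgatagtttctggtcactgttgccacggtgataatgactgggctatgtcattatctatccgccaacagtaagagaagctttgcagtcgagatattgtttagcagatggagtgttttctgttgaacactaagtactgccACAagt
SCARNA16: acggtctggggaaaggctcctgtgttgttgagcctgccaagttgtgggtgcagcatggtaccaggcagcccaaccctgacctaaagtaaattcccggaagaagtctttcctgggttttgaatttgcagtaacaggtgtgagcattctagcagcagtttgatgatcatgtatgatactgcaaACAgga

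SNORD3A is annotated at chr17:19188016-19188714, plus strand, a span of 699 bases of which the 217-base transcript above is the mature U3 form, and it has no host gene on its strand. SNORD3D lies at chr17:19112419-19112636, minus strand. Over the 217 aligned bases the transcripts of SNORD3A and SNORD3D agreed in 98.6%, with the 3 substitutions A4G, C53T and A78C, counted from the 5′ end of SNORD3A with its base first. SNORD17 lies at chr20:17962710-17962946, minus strand, in an intron of SNX5. SNORD33 lies at chr19:49490615-49490699, plus strand, within RPL13A, and SNORD89 at chr2:101272936-101273049, minus strand, within RNF149; each overlaps an exon of at least 1 annotated transcript of its host. SNORA73A (chr1:28507366-28507571, plus strand) and SNORA73B (chr1:28508559-28508762, plus strand) both lie in SNHG3 and agreed in 94.1% of 204 aligned bases. SCARNA13 lies at chr14:95533355-95533629, minus strand, in an intron of SNHG10, and SCARNA16 at chr17:77089307-77089493, plus strand, in an intron of SEC14L1.

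The class names matched these letters in most members. TGATGA stood in the first 30 bases of 58.6% of 70 SNORD transcripts, of 0% of 89 SNORA transcripts and of 0.5% of 6000 annotated transcripts of other short RNA types. CTGA stood in the last 16 bases of 92.9% of the SNORD transcripts, 6.74% of the SNORA transcripts and 4.5% of the other short RNAs. ACA at its fixed place was found in 75.3% of the SNORA transcripts, 47.4% of 19 SCARNA transcripts, 0% of the SNORD transcripts and 0.95% of the other short RNAs. Only the given strand of each transcript was searched, and the windows of CTGA and ACA overlap, so these motifs can share letters. The annotation held 178 of the 179 members; SNORA74C-2 has no sequence here.

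The libraries differed far more by replicate number than by group. Total counts ran from 3287218 to 15010016 in the libraries numbered 1 and 2 and were 61912640 and 73331652 in those numbered 3. Background, measured as the count density over 381 olfactory receptor genes, came to 37.9% of counts in control 1 and 55.5% in mutant 1, to 84.4% and 81.8% in control 2 and mutant 2, and to 7.48% and 6.61% in control 3 and mutant 3. Of 10 markers of HEK cells, 8 stood over 8 times above background in each library numbered 3 and none did in either numbered 2; of 10 markers of other cell types, 2 did in each of those numbered 3. The replicate 3 libraries gave a median of 93.6% of a member's counts. On these libraries alone 172 members reach 100 counts, and without them 49 do. All 179 had at least 10 counts in each replicate 3 library, against 21 in control 2 and 21 in mutant 2. Even counts outnumbered odd ones over all genes, with 57.2% to 78.9% of counts between 1 and 99 being even. The sources used here do not say whether reads or fragments were counted.

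SnoRNA counts made up 0.466% of control 3 and 0.590% of mutant 3, 0.194% of control 1 and 0.186% of mutant 1, and 0.00993% of control 2 and 0.0284% of mutant 2. Levels are given as CPM, counts per 1000000 of a library total scaled by TMM factors. The box C/D members summed to 324, 15.01 and 1969 CPM in controls 1, 2 and 3 and to 278, 60.5 and 2180 CPM in mutants 1, 2 and 3. The H/ACA members summed to 625, 33.0 and 3549.9 CPM in the controls and to 405, 115 and 4697 CPM in the mutants. The SCARNA members summed to 1143, 25.7 and 1426 CPM in the controls and to 876, 40.9 and 1162 CPM in the mutants. In every class the ranges of the groups overlapped. Each replicate number held its own level in all 3 classes, and the nearest sums of 2 replicate numbers were those of SCARNA, 1143 CPM in control 1 and 1162 CPM in mutant 3.

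**Figure D1:**
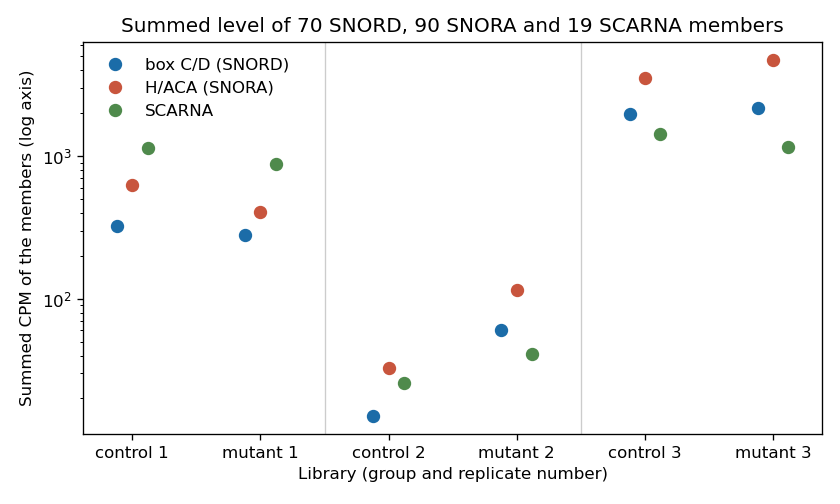
Summed level of the SNORD, SNORA and SCARNA members in each of the 6 libraries, in CPM on a log axis, with libraries of the same replicate number side by side and 1 point per class and library. In the libraries numbered 1 the SCARNA point is the highest, at 1143 and 876 CPM, and in those numbered 3 it is the lowest, at 1426 and 1162 CPM.

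The make-up of the snoRNA counts differed between replicates 1 and 3 in the same way in both groups. SCARNA RNAs took 54.6% of them in control 1 (95% exact binomial interval 54.1 to 55.2) and 56.2% in mutant 1 (55.4 to 57.1). They took 20.5% in control 3 (20.4 to 20.7) and 14.5% in mutant 3 (14.4 to 14.6). With far fewer counts they took 34.8% in control 2 (32.03 to 37.8) and 18.9% in mutant 2 (16.5 to 21.6). H/ACA RNAs were the largest class in the other 4 libraries, with 51.1% in control 3, 58.4% in mutant 3, 44.8% in control 2 and 53.0% in mutant 2. Box C/D RNAs stayed between 15.5% (control 1) and 28.4% (control 3). These intervals cover counting error only. They take the counts as independent and would be too narrow if the reads of a fragment were counted singly. Without the top member of each class the libraries numbered 1 differed in their largest class: SNORA members took 47.4% and SCARNA members 38.7% in control 1, against 42.8% and 43.5% in mutant 1.

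Single RNAs carried much of each class. SCARNA2 gave 40.7% to 59.9% of the SCARNA counts of a library, and SNORD3A gave 29.9% to 59.2% of the SNORD counts. SNORA73A and SNORA73B gave 33.7% and 31.4% of the SNORA counts in control 3 and 34.4% and 34.3% in mutant 3, but 10.1% and 9.16% in control 1 and 6.31% and 9.52% in mutant 1. From replicate 1 to replicate 3 of the control, SNORA73A was 18.9-fold higher, SNORD3A 6.57-fold and SCARNA2 1.07-fold. In the mutant the same ratios were 63.3-fold, 8.20-fold and 1.21-fold. The median log2 CPM difference between replicates 3 and 1 was 2.39, 1.503 and 0.77 for the SNORD, SNORA and SCARNA members in the control, and 2.78, 2.56 and 0.36 in the mutant. For the tested genes far above background, those with a mean count density over 8 times that of the olfactory receptors, it was 0.70 in the control and 0.94 in the mutant. Since the rule selects rows with high counts in the replicate 3 libraries, these medians are partly set by it. Among the 8 SNORD, 28 SNORA and 13 SCARNA members that reach 100 counts without those libraries, the medians were 2.48, 1.18 and 0.58 in the control and 2.96, 2.11 and 0.31 in the mutant.

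Counts at a snoRNA gene were set beside those of its host gene by the count density, in counts per base. It was taken over the member and over the rest of the host's span, introns included. Of the 178 annotated members, 172 lie within a host gene on the same strand, 74 of them in introns only and 98 overlapping an exon of some host transcript. Among the box C/D members, 23 lie in 14 ribosomal protein genes, as do 15 H/ACA members in 12 such genes and 0 SCARNA members. In the replicate 3 libraries 49 of 88 H/ACA members and 18 of 18 SCARNA members with a host value stood over 4 times above their host, but 16 of 65 box C/D members did. The medians were 5.53 times the host density for SNORA, 19.4 times for SCARNA and 1.02 times for SNORD. At or under the density of the host stood 30 SNORD, 8 SNORA and 0 SCARNA members.

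**Figure D2:**
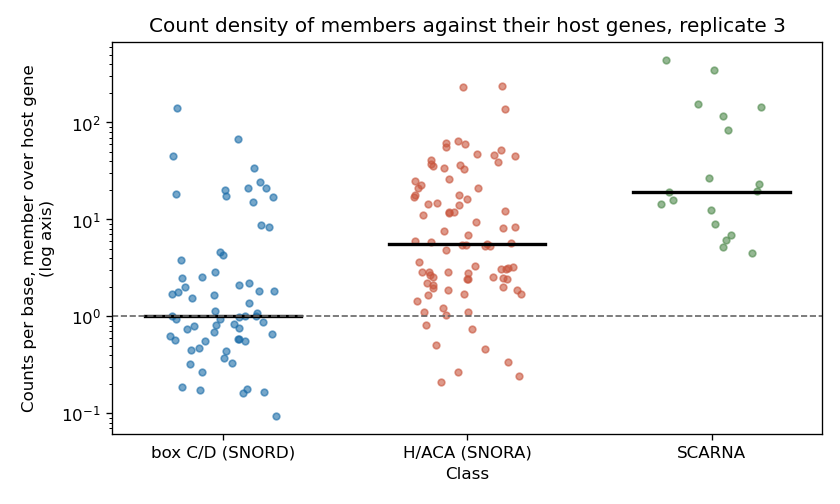
Count density of each member divided by that of the rest of its host gene in the replicate 3 libraries, on a log axis, with 1 point per member and a bar at each class median. The dashed line marks equal density; the SNORD median lies on it at 1.02, while the SNORA and SCARNA medians lie at 5.53 and 19.4.

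SNORD24, in the ribosomal protein gene RPL7A, had the lowest ratio, 0.0935 times its host, and SCARNA16 had the highest, 439 times. These extremes were picked after their values were seen. At a ratio near 1, reads of the member and reads of its host cannot be told apart. Introns lower the host density, so where a member overlaps an exon, reads of the host mRNA can also give a ratio above 1. The ratio therefore does not settle where the reads come from. The median annotated length was 86.5 bases for SNORD, 134 for SNORA and 166 for SCARNA members, and whether fragments of the shortest RNAs entered the libraries was not tested.

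The counts of a host were also set beside those of its members, for 4 hosts chosen after their values were seen. SNORA73A and SNORA73B together had 95921 counts in control 3, against 102613 for their host SNHG3, which is 93.5% (95% exact binomial interval 93.3 to 93.6). In mutant 3 the share was 96.7% (96.6 to 96.8). The 4 SNORA71 members equalled 61.8% of the counts of SNHG17 in control 3 and 73.2% in mutant 3, and SNORD118 equalled 83.9% and 88.3% of those of TMEM107. The share was lower elsewhere: the SNORD members of SNHG1 had 1395 counts against 5577 for the host in control 3, and 37.3% of its counts in mutant 3, and in control 2 the share was 30.5% for SNHG3 and 0% for TMEM107. Whether reads were counted for both features is not known here, and the intervals take the member counts as part of the host counts. With the members taken out, SNHG3 was lower in mutant 3 than in control 3 by a log2 difference of −0.55, while the full SNHG3 count was higher by 0.43.

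U3, the RNA of SNORD3A, binds the ribosomal RNA precursor and is needed for the early cleavages that release the small subunit RNA. SNORD3A was the most abundant box C/D member, at 159, 4.49 and 1046 CPM in controls 1, 2 and 3 and 157, 27.2 and 1289.7 CPM in mutants 1, 2 and 3. The mutant was level with the control in pair 1 and above it in pairs 2 and 3, and the groups overlapped throughout. The control mean was 403 ± 562 CPM and the mutant mean 491 ± 694 CPM (SD, n = 3 each). The log2 fold change was 0.28 ± 1.61 (SE) without a replicate block, with an adjusted p of 1 (edgeR quasi-likelihood test, Benjamini-Hochberg over all 33375 tested genes).

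SNORD3D, a near copy of U3, was the only RNA of the set to pass any of the fits on all 6 libraries, and it did so only with the replicate number as a block, in a fit that called 1.41% of all tested genes and 0.00599% as higher. Its counts were 0, 2 and 412 in the controls and 15, 0 and 1597 in the mutants. The mutant was above the control in pairs 1 and 3 and not in pair 2, where the counts were 2 and 0. In CPM these were 0, 0.134 and 9.92 against 1.71, 0 and 29.7, and a count of 0 allows up to 3 counts, or 0.216 CPM in control 1 and 0.693 CPM in mutant 2, by counting error alone. With the block the log2 fold change was 1.95 ± 0.49 (SE, edgeR adjusted p = 0.0315), and without it 1.64 ± 1.93 (adjusted p = 1). Without pair 1 the blocked adjusted p was 0.362, and with TMM factors taken only from genes far above background it was 0.101. The 2 gene IDs of SNORD3D cover the same place and had equal counts in all 6 libraries, so they count as 1 RNA. Reads shared among near copies could be placed on any of them, and the sources used here do not say how the counting treated them.

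The remaining U3 copies did not share the SNORD3D pattern in every pair. SNORD3C had 4, 0 and 471 counts in the controls and 6, 0 and 1065 in the mutants, above the control in pairs 1 and 3 and at 0 in both libraries of pair 2. SNORD3B-1 had 23, 12 and 410 in the controls and 22, 0 and 538 in the mutants, and SNORD3B-2 had 12, 1 and 269 against 7, 0 and 308. Over their aligned bases these copies were identical to SNORD3D at 98.2%, 99.1% and 99.1% of positions. None of the 3 passed a fit, with blocked log2 fold changes of 0.88 ± 0.47, −0.03 ± 0.45 and −0.20 ± 0.56.

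SNORD118 encodes U8, which acts in the maturation of the large subunit RNA. Its level was 18.7, 0 and 132 CPM in the controls and 12.2, 4.62 and 106 CPM in the mutants. It stood 140.1 times above TMEM107, the gene it overlaps, in the replicate 3 libraries, the highest ratio of the box C/D members. The mutant was lower in pairs 1 and 3, while in pair 2 the counts were 0 and 20. SNORD13, or U13, pairs with the small subunit RNA and is needed for its acetylation by NAT10. SNORD13 had 4.25, 0.134 and 38.4 CPM in the controls and 2.96, 2.31 and 19.1 CPM in the mutants, with pair differences of −0.51, 3.73 and −1.01 on the log2 scale. Neither RNA passed a fit, with blocked adjusted p-values of 0.974 and 0.965.

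Among the methylation guides, SNORD17 had 32.3, 1.34 and 94.1 CPM in the controls and 32.1, 8.77 and 121 CPM in the mutants. It was nearly level in pair 1 and higher in the mutant in pairs 2 and 3, with a blocked log2 fold change of 0.73 ± 0.31 that did not pass (adjusted p = 0.367). SNORD10, within EIF4A1, had 24.9, 1.07 and 117 CPM against 14.6, 1.85 and 108 CPM, lower in the mutant in pairs 1 and 3. SNORD15B, in an intron of RPS3, had 12.6, 0.871 and 146 CPM against 8.89, 0.924 and 176 CPM, lower in the mutant in pair 1 and higher in pairs 2 and 3. SNORD97, a guide for a methionine transfer RNA, had pair differences of −0.64, 0.70 and 0.04, and SNORD22, a box C/D RNA of SNHG1, had −0.80, 2.44 and 0.27. In all of these the libraries numbered 3 were the highest of both groups and those numbered 2 the lowest.

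Among box C/D members with low mutant counts, 3 are described that were chosen after their values were seen. SNORD33, within RPL13A, had 16, 2 and 1222 counts in the controls and 0, 8 and 471 in the mutants, so the mutant was lower in pairs 1 and 3 and higher in pair 2. Its host RPL13A, with the member taken out, had a log2 difference of −1.25 in pair 3, where SNORD33 had −1.75. Its density was 1.70 times that of the host. SNORD58B, within RPL17, had 15, 4 and 423 counts against 2, 0 and 236, lower in the mutant in all 3 pairs, beside a host difference of −1.17 in pair 3. SNORD89 had 84, 0 and 815 counts against 25, 0 and 412, lower in pairs 1 and 3 and at 0 in both libraries of pair 2. SNORD89 stood 67.8 times above its host RNF149, which differed by 0.12 in pair 3. None passed with all pairs in the block (adjusted p = 0.472, 0.221 and 0.117); without pair 2, SNORD33 fell by 1.76 ± 0.39 (SE, edgeR adjusted p = 0.0035) in a fit that called 0.66% of its tested genes in either direction.

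The H/ACA class was led by SNORA73A and SNORA73B, which encode the U17 RNAs and act in cleavage of the ribosomal RNA precursor. SNORA73A had 63.3, 0.938 and 1197 CPM in the controls and 25.5, 13.2 and 1614 CPM in the mutants. SNORA73B had 57.2, 1.21 and 1114 CPM in the controls and 38.5, 18.5 and 1609 CPM in the mutants. Both were lower in the mutant in pair 1 and higher in pairs 2 and 3, and both varied more between libraries of 1 group than between the groups. Per kilobase of annotated length they were the most abundant members in control 3 and mutant 3, at 5809 and 7837 CPM per kilobase for SNORA73A and 5461 and 7886 for SNORA73B. SCARNA2 had 1741 and 1410.0. SNORD3A had 1497 and 1845 over its 699-base span, but 4822 and 5943 CPM per kilobase over the 217-base transcript, above SCARNA2 in both libraries. For SNORA73A the control mean was 420.3 ± 673 CPM and the mutant mean 551 ± 921 CPM (SD, n = 3 each), a difference well inside the spread.

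Next in mean level came SNORA71A, which shares SNHG17 with 3 related members, with 49.5, 4.49 and 163 CPM in the controls and 30.4, 13.9 and 178 CPM in the mutants. SNORA63, a pseudouridine guide within EIF4A2, had 35.3, 0.938 and 77.0 CPM against 20.1, 5.08 and 101 CPM. Both repeated the order seen for SNORA73A, lower in pair 1 and higher in pairs 2 and 3. SNORA48 and SNORA67, both within EIF4A1, had pair differences of −0.47, 3.76 and 0.58 and −0.38, 1.30 and 0.30, and SNORA64, within RPS2, had −0.49, 0.70 and 0.27. The same order, lower in pair 1 and higher in pair 3, held for 50 of the 90 SNORA members but for 11 of 70 SNORD and 4 of 19 SCARNA members. The share of all tested genes with this order is not given here.

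SNORA71D and SNORA7A were the only H/ACA members with a mean log2 CPM of at least 2 that were higher in the mutant in all 3 pairs. SNORA71D had 187, 94 and 1750 counts in the controls and 122, 34 and 3099 in the mutants, and its pair differences were 0.05, 0.32 and 0.45. SNORA7A, within RPL32, had 233, 4 and 1967 counts against 158, 10 and 2888, and its pair differences were 0.10, 2.92 and 0.18. The difference of SNORA7A in pair 2 rests on 4 and 10 counts. Neither passed a fit, with blocked adjusted p-values of 0.874 and 0.768. SNORA7A and its copy SNORA7B are identical at 98.6% of 139 bases, so its counts may be shared.

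The Cajal body RNAs differed least between the replicate 1 and replicate 3 libraries. SCARNA2, which guides methylation of the U2 spliceosomal RNA, had 685, 15.1 and 731 CPM in the controls and 491, 16.6 and 592 CPM in the mutants. It was lower in the mutant in pairs 1 and 3 and close to level in pair 2. The means were 477 ± 401 and 367 ± 307 CPM (SD, n = 3 each), and the unblocked log2 fold change was −0.38 ± 1.36 (edgeR adjusted p = 1). SCARNA12 had 77.5, 1.21 and 145 CPM in the controls and 30.3, 2.31 and 130.3 CPM in the mutants. SCARNA10, a composite of box C/D and H/ACA elements, had 55.1, 0.469 and 96.6 CPM against 39.2, 0.924 and 99.6 CPM. SCARNA12 was lower in the mutant in pairs 1 and 3, and SCARNA10 was lower in pair 1 and nearly level in pair 3.

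SCARNA13 was the only member with a mean log2 CPM of at least 2 that was lower in the mutant in all 3 pairs. Its counts were 1173, 32 and 2741 in the controls and 618, 4 and 3153 in the mutants, with pair differences of −0.26, −1.18 and −0.17 and a blocked adjusted p of 0.848. SCARNA16 showed the opposite of the H/ACA order in pairs 1 and 3, but like that order was higher in the mutant in pair 2. It had 57.7, 2.08 and 92.9 CPM in the controls and 71.3, 8.31 and 36.0 CPM in the mutants. In pair 3 the SCARNA16 level in the mutant was lower by a log2 difference of −1.37, while the host SEC14L1 differed by 0.28. In pair 1 SCARNA16 was higher in the mutant by 0.30, and over the pairs its blocked log2 fold change was 0.06 ± 0.35.

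**Figure D3:**
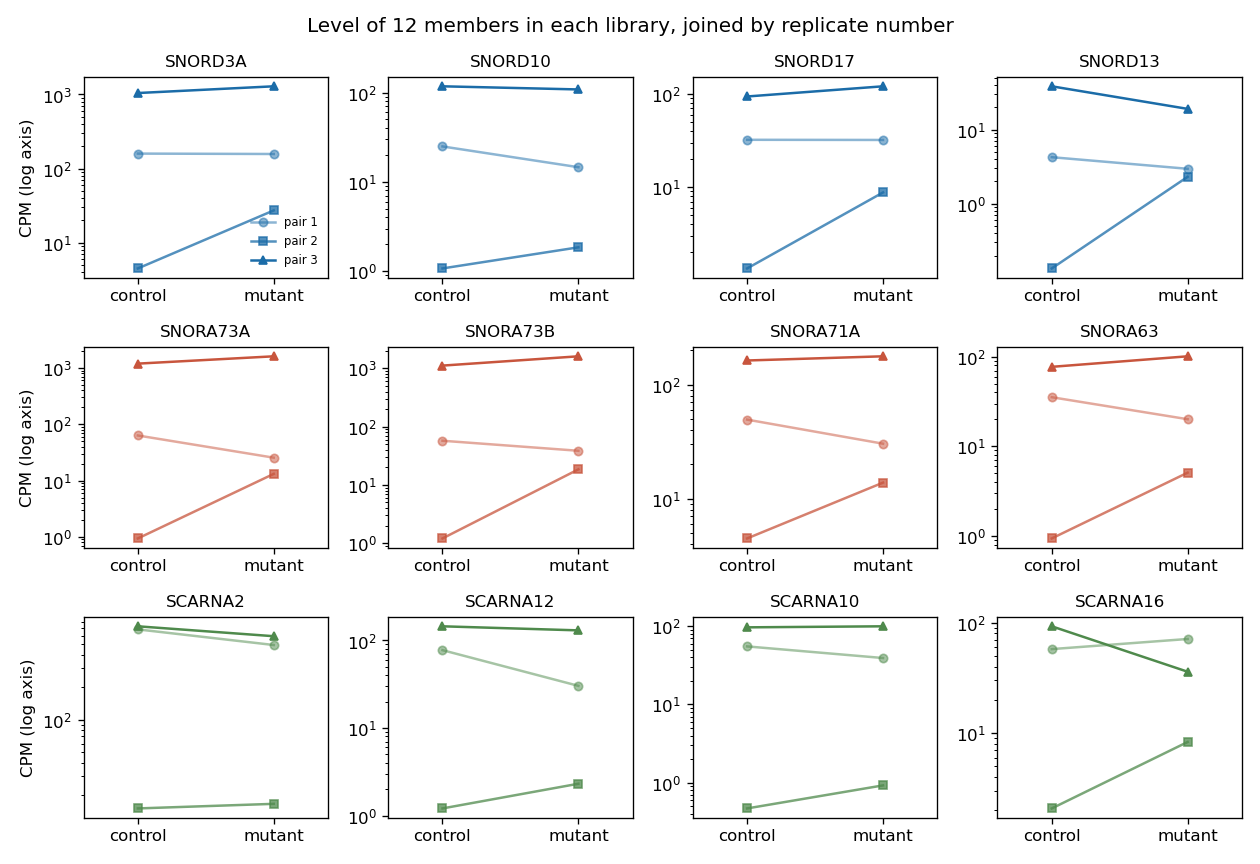
Level of 12 abundant members in CPM on log axes that differ between panels, with control and mutant libraries of the same replicate number joined by a line (4 SNORD in the top row, 4 SNORA in the middle, 4 SCARNA at the bottom). The lines of pair 2 lie lowest in all 12 panels, SNORA73A slopes down in pair 1 and up in pairs 2 and 3, and SCARNA2 lies at nearly the same level in pairs 1 and 3.

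Members were then compared within each same-numbered pair, as the log2 CPM (prior count 1) of the mutant minus that of the control. In pair 1 the median difference was −0.77 for SNORD, −0.70 for SNORA and −0.48 for SCARNA members, with 50 of 70, 71 of 90 and 12 of 19 lower in the mutant. All 33375 tested genes had a median of −0.09 there, but the 4416 tested genes far above background had −0.82, close to the SNORD and SNORA medians. In pair 3 the medians were −0.26, 0.19 and −0.24, and 60 of 90 SNORA members were higher in the mutant against 18 of 70 SNORD and 5 of 19 SCARNA members. All tested genes had −0.13 in pair 3, and those far above background −0.63. In pair 2 the medians were 0, 0.78 and 0, with 18 SNORD and 19 SNORA members at 0 counts in both libraries.

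**Figure D4:**
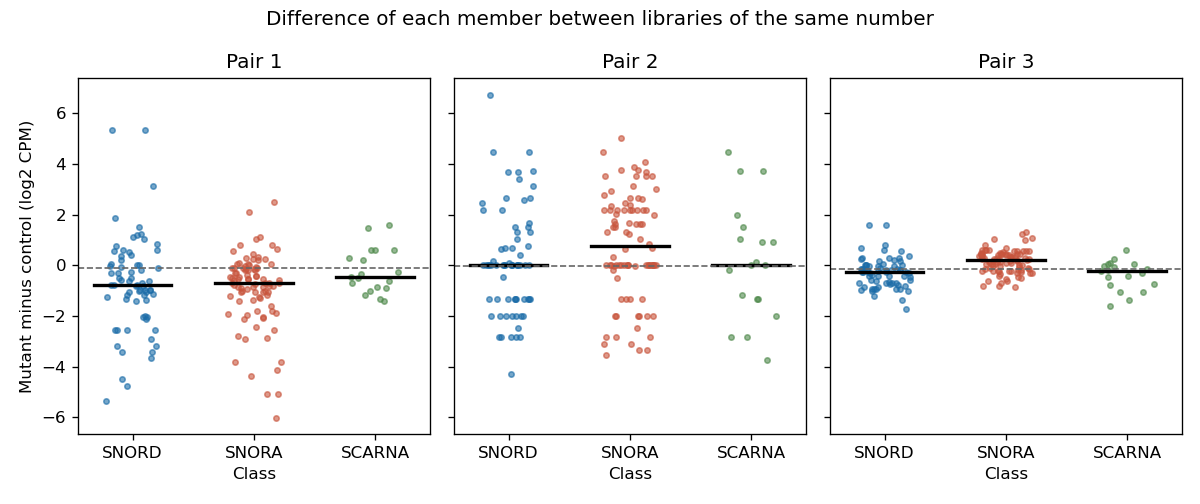
Difference in log2 CPM, mutant minus control, of each member in pairs 1, 2 and 3, with 1 point per member, a bar at each class median and a dashed line at the median of all tested genes. The points spread widely in pairs 1 and 2 and narrowly in pair 3, where the SNORA median is 0.19 and the SNORD and SCARNA medians are −0.26 and −0.24.

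The H/ACA median exceeded the box C/D median by 0.066, 0.78 and 0.45 in pairs 1, 2 and 3. Among the 14 members with at least 10 counts in all 6 libraries, of which only 2 are SNORD (SNORD3A and SNORD17), this gap was −0.62, −0.57 and 0.075. Among members over 4 times above their host it was −0.15, 1.58 and 0.40. Over 8 settings, these 3 included, the gap was above 0 in pair 3, from 0.075 to 0.51. The settings were selections of members, scalings and 1 subtraction of the host density. Its sign turned with the selection in pair 1 (−0.62 to 0.20) and in pair 2 (−0.90 to 1.58). Not every setting could move the pair 3 gap. The selection by at least 20 counts in the pair kept all members there and repeated 0.45. Scaling by library totals shifts the members of a pair nearly alike and also gave 0.45. With the host density subtracted, counts below 0 were set to 0, and the SNORD median was 0 in all 3 pairs. In pair 3, 26 of 70 SNORD members then had a difference of 0, so the gap of 0.40 rests in part on that floor. No test was made of a difference between classes.

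Annotated span moved with the pair 3 difference among the box C/D members, and it is not always the length of the RNA. The U3 copies all lie in the set of 100 bases or more, with SNORD3A at 699 bases for a 217-base transcript. SNORD3D enters that set with each of its gene IDs, which had equal counts. The 47 SNORD members under 100 bases had a median of −0.41 with 40 lower in the mutant, and the 23 of 100 bases or more had a median of −0.04 with 12 lower. Across the 70 SNORD members, annotated span and the pair 3 difference correlated with Pearson's r of 0.33 and Spearman's rho of 0.26. These points share 2 libraries, and the part of the U3 copies in the correlation was not tested. The 40 host genes of SNORD members, with the members taken out, had a median of −0.89 in pair 3, the 62 hosts of SNORA members −0.66 and the 17 hosts of SCARNA members −0.08. The medians of the SNORA members and of their hosts thus had opposite signs in pair 3. Across the 88 SNORA members with a host the rho between member and host was 0.05, against 0.28 across 65 SNORD members. In pair 1 the hosts had medians of −0.89, −0.74 and −0.40, near those of the members. The part of length, host reads or depth in these differences was not tested.

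Few of the 179 members kept a direction over the pairs. Higher in the mutant in all 3 pairs were 7 members (5 SNORA and 2 SNORD), and lower in all 3 were 18 (11 SNORD, 5 SNORA and 2 SCARNA). Of the 18 lower in all 3, 17 had at most 5 counts in control 2 and 0 in mutant 2, and SCARNA13 had 32 and 4. Among all tested genes the corresponding shares were 9.90% and 18.2%. The sets are unlike, since 50 members fell below the count filter that the tested genes passed. In pair 2, 18 SNORD, 19 SNORA and 2 SCARNA members were equal and could keep no direction, against 59 of the 33375 tested genes. Over the 108 members with at least 20 counts in pair 1 and in pair 3, the differences of pairs 1 and 3 correlated with Pearson's r of −0.12.

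No member passed the fit across all genes without a block, in which 0 of 33375 genes passed (percent called: 0%). At an unadjusted p under 0.05 that fit had 25 genes and 0 members, and DESeq2 had 0 genes past its adjusted threshold and 70 at the unadjusted one, again with 0 members. With the replicate block 467 genes fell (1.4% of those tested) and 2 rose, 1.41% in all, and of the 129 tested members (37 SNORD, 77 SNORA and 15 SCARNA) the 2 IDs of SNORD3D rose and 0 fell. They are themselves the 2 genes that rose, against a background of 0.00599% in that direction. At an unadjusted p under 0.05 the blocked fit had 10 of 129 members, 4 of them higher, and 3347 of all 33375 genes. With factors from genes far above background it had 25 members, all 25 higher, and 2090 genes. The blocked log2 fold changes of the tested members had medians of −0.20 for SNORD, 0.03 for SNORA and −0.23 for SCARNA, beside −0.08 over all tested genes. With factors from genes far above background these medians were 0.49, 0.69 and 0.40 and that of all genes 0.39, so the sign of a class median depends on the scaling. No member had groups whose CPM ranges did not overlap (0 of 179), against 0.998% of the tested genes.

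At the border of the rule, SNORD19B (102 counts in total), SNORA1 (103) and SNORD12C (105) were just inside, and SNORD30 (98), SNORD38A (97) and SNORA11 (97) just outside. SNORD19B had 47 counts in control 3 and 51 in mutant 3, and SNORD30 had 55 and 40. Of the 553 rows with a snoRNA symbol, 90 had no count in any library: 69 SNORD, 21 SNORA and 0 SCARNA rows. A further 50 members fell below the count filter of the fit and have no test.

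The mRNAs of the proteins that bind and assemble these RNAs were looked at next, beside the tested genes far above background, whose medians were −0.82, 0 and −0.63 in pairs 1, 2 and 3. In the same pairs the box C/D core proteins had medians of −0.56, −0.24 and −0.67, the H/ACA core proteins −1.14, −0.42 and −0.90, and the assembly factors −0.45, −0.05 and −0.36. Of the 4 box C/D core proteins, FBL, NOP56, NOP58 and SNU13, 0 passed with the block, and their median log2 fold change was −0.43. Of the 4 H/ACA core proteins 0 passed, with a median of −0.88; NHP2 had −0.95 ± 0.27 (SE, edgeR adjusted p = 0.0687), DKC1 −0.81 ± 0.26, GAR1 −1.15 ± 0.38 and NOP10 −0.55 ± 0.44. Among 20 assembly factors 1 fell, TCOF1, a nucleolar protein that promotes ribosomal RNA transcription, by 1.45 on the log2 scale (SE 0.38, edgeR adjusted p = 0.0395). Of all tested genes 1.4% fell in that fit. NOLC1, a chaperone that binds both kinds of snoRNA particle, had −1.01 ± 0.29 and did not pass. The list median was −0.30, beside −0.08 over all tested genes. With factors from genes far above background 0 genes of these lists passed, and the 3 medians were 0.07, −0.37 and 0.16 beside 0.39 over all tested genes. With the block and RLE factors 0 box C/D core proteins, 1 H/ACA core protein and 2 assembly factors fell, beside 573 of all 33375 tested genes.

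Of 35 tested proteins of the small subunit processome, the large particle assembled around U3, 6 fell with the block and 0 rose. Their median was −0.56, and 1.4% of all tested genes fell. Of the 33375 tested genes 4416 lay far above background, and the share of these that fell was not counted. In pairs 1, 2 and 3 the processome medians were −1.03, −0.26 and −0.35, beside −0.82, 0 and −0.63 for the genes far above background. With factors from genes far above background, a fit that called 4 genes in all, 0 of the 35 passed and their median was −0.07. IMP3, which helps U3 pair with the precursor, fell by 1.46 (edgeR adjusted p = 0.002), from 22.2, 7.04 and 60.6 CPM in the controls to 11.6, 1.39 and 19.9 CPM in the mutants. It was lower in each of the 3 pairs. NOL6, DHX37 and PDCD11 fell by 1.39, 1.33 and 1.46 (adjusted p = 0.00295, 0.0087 and 0.0162), and WDR3 and BYSL also fell. SNORD3A itself had a blocked log2 fold change of 0.85 ± 0.45 (adjusted p = 0.581). Without the block none of these mRNAs passed.

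Of 29 listed host genes, mostly noncoding but with the protein-coding TAF1D and CWF19L1 among them, 0 passed with the block. Their median was −0.21, and SNHG15 had −0.86 ± 0.26 (edgeR adjusted p = 0.0893). The full host counts were used here, so they may hold reads of the members. SNORA73A and SNORA73B equalled 96.7% of the SNHG3 counts in mutant 3. Of 17 tested short RNAs of other kinds, 2 fell with the block and 0 rose, again beside 1.4% of all tested genes, and with factors from genes far above background 0 passed. RNY3, a Y RNA bound by the Ro protein, had 28, 9 and 8337 counts in the controls and 10, 6 and 1447 in the mutants, and fell by 1.95 (edgeR adjusted p = 0.0162), although it was higher in the mutant in pair 2. RNU11, an RNA of the minor spliceosome, had 417, 13 and 3542 against 191, 0 and 1096 and fell by 1.37 (adjusted p = 0.0197). The median of these short RNAs was −0.20, 1.65 and −1.22 in pairs 1, 2 and 3. In pair 3 they thus lay below the SNORA median of 0.19 and below the −0.63 of the tested genes far above background. TERC, the telomerase RNA, which ends in an H/ACA domain, had pair differences of −0.62, −0.43 and −0.21 and did not pass.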

How the data were processed

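The authors deposited raw, whole-number counts, not normalized, for 60671 Ensembl gene IDs in 6 libraries. FastQC, STAR 2.7.6a and featureCounts are named in the submitters' processing notes. The genome build, annotation, strand and overlap settings and the handling of reads with several matches are not stated in what was used here. Symbols came from a table of gene IDs that held 60401 of them; positions, host genes and sequences came from GENCODE release 29 on GRCh38 and are not coordinates of the submitters' files.

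The test was that of edgeR 4.0.16 in R 4.3.3 (filterByExpr defaults, TMM factors, quasi-likelihood F test, Benjamini-Hochberg adjustment over 33375 genes, threshold 0.05) with no replicate block. Standard errors were derived from the fold change and its F statistic (log2 fold change over the square root of F). The alternative added replicate number as a blocking term. The pairing comes from the data: deviations from group means correlated between libraries of the same number with r = 0.41, 0.76 and 0.90 for numbers 1, 2 and 3, and all 6 libraries correlated best with their own number. Blocked values are printed for many of the named RNAs and genes, also where they change no call. With 3 libraries against 3 an exact permutation test of a single value cannot go below p = 0.10, and none was run. DESeq2 1.42.0, other factors, no filter and leaving out libraries or pairs were further alternatives. The fits with and without the block were also run on counts simulated from the blocked fit, and those results are not given here.

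Host density is the count per base over the whole span of a same-strand host gene, introns included, after all short RNA genes within it were taken out. With several hosts, the densest was used. Members named are the 8 SNORD, 8 SNORA and 5 SCARNA with the highest mean CPM, those passing a fit (up to 12), those with a mean log2 CPM of at least 2 and 1 direction in all 3 pairs (up to 4 per direction, 2 for SCARNA), the U3 copies, and the 3 on each side of the count limit; others are said to be chosen later. The members and lists were chosen with earlier results of these data known. DIEXF, listed with the processome, is an older name of UTP25, so that list has 35 genes. The values of some genes are not reported here.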

Additional observations from a re-analysis of the deposited data

How the results depend on the processing

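No member passed without a replicate block under RLE or upper quartile factors, without the filter, with DESeq2 or without any single library. With the block, genes past the threshold were 469 of all tested, 576 with RLE factors, 4 with factors from genes far above background, 231 with no filter (chosen after seeing the data), 37 without pair 1 and 259 without pair 2, against 0 in the fit as reported; without pair 3 there were 0. The members higher in the mutant were 2 with the block, 2 with the block and RLE factors, 2 with the block and no filter, and 2 with the block without pair 2 (the IDs of SNORD3D each time), and 1 was lower in the last of these (SNORD33). The median log2 fold change of the tested SNORD members was 0.49 with the block and factors from genes far above background; leaving out 1 library or pair moved it between −2.14 and 1.99, that of SNORA between −1.49 and 1.65 and that of SCARNA between −0.99 and 0.61. The gap between the SNORA and SNORD medians was −0.62, −0.57 and 0.075 in pairs 1, 2 and 3 among members with at least 10 counts in each library, 1.58 in pair 2 among those over 4 times above their host and −0.90 in pair 2 among those with at least 20 counts in the pair (both chosen after seeing the data). Without the top member of each class the SNORD share of snoRNA counts was 20.9% in mutant 2 and 19.6% in mutant 3, against 28.0% and 27.1%. Where fewer libraries or members enter, that is the change made; for the other settings the cause was not tested. Of 144 alternative values of these summaries 117 stayed as reported; the signs of the class medians and of the pair 1 and pair 2 gaps turned in settings named here. In control 2 and mutant 2, where background made up 84.4% and 81.8% of counts, 21 members each reached 10 counts.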
